A study of Mus musculus with 40 samples.

Results

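The 39 Hox genes of the mouse were followed across 34 RNA sequencing libraries of E14tg2a, an established mouse embryonic stem cell line. The members are all rows of the deposited count tables whose symbol is Hoxa, Hoxb, Hoxc or Hoxd followed by a number. They make up 39 of 55276 rows in the genotype and time course sets and 39 of 55291 rows in the Pramel7 set. The Hoxa cluster holds 11 of them, Hoxb 10, Hoxc 9 and Hoxd 9. All cells grew in GMEM with fetal bovine serum and LIF, the cytokine that keeps these cells undifferentiated. The genotype set has 2 libraries each of wild type (WT), DuxKO, Dppa2KO, CtbpDKO, Ctbp_DuxTKO and DKO_Dppa2. CtbpDKO cells are labelled as lacking both Ctbp genes, the paralogues Ctbp1 and Ctbp2, which code for transcriptional corepressors. The triple knockout adds loss of Dux, a homeobox factor of the early embryo. DKO_Dppa2 is described in 1 label as the Ctbp double knockout without Dppa2, a chromatin factor of pluripotent cells, and in its title as a Dppa2 and Dux knockout. The description was followed for the name used here, and Ctbp1 was at 4 and 0 counts in these libraries. The Pramel7 set has 4 libraries of WT and 2 each of DuxKO, P7KO, P7OE and DuxKO_P7OE, labelled as Pramel7 knockout or overexpression. The time course has 2 libraries each of CtbpDKO cells on days 0, 3, 9, 12 and 18, and their title carries the word Dox. The labels do not say which steps that word covers, how many clones stand behind a genotype, or whether libraries of a group came from separate cultures. Each p-value therefore measures only the spread between these libraries, which may be technical.

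Hox genes code for homeodomain transcription factors that assign position along the body axis. They lie in 4 clusters in which gene order follows the order of use, so that paralogues with low numbers come on early and in anterior tissue and those with high numbers late and in posterior tissue. In embryonic stem cells the clusters are held mostly silent under H3K27 methylation laid down by Polycomb repressive complex 2, and retinoic acid opens them from the low-numbered end. Pbx and Meis proteins bind DNA together with Hox proteins, and Cdx factors are direct activators of Hox genes in the trunk.

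The depth of the libraries sets what can be seen of genes this weak. Library totals were 19944644 to 36025046 counts in the genotype set, from 10123058 to 30135341 in the Pramel7 set and from 16674526 to 30169626 in the time course. Levels are given as CPM, counts divided by library size after TMM scaling for library composition, and 3 counts were worth between 0.0826 and 0.289 CPM, depending on the library. The lowest totals, 11089600 and 10123058, belong to DuxKO_P7OE. Between 59% and 75.5% of the counts from 1 to 20 in a library were even numbers and the reason was not tested. Ctbp1 averaged at most 0.151 CPM in every group labelled as a Ctbp double or triple knockout, against 66.4 ± 3.28 CPM in WT of the genotype set (SD, n = 2). Ctbp2 fell from 213 ± 2.65 CPM in WT to 43.7 ± 0.160 CPM in CtbpDKO (SD, n = 2 each). Dppa2 was still read at 31.2 ± 2.92 CPM in Dppa2KO, against 59.1 ± 2.57 CPM in WT (SD, n = 2 each). Duxf3, the Dux gene, was at 0 in DuxKO and at 0.0168 ± 0.0237 CPM in WT (SD, n = 2 each), too low in WT to check the label. It was at 0 in DKO_Dppa2 and in Dppa2KO too, against 0.945 ± 0.389 CPM in CtbpDKO (SD, n = 2 each). DKO_Dppa2 had Ctbp2 at 36.7 ± 0.308 CPM, against 234 ± 3.40 CPM in Dppa2KO (SD, n = 2 each). Like its low Ctbp1, this goes with the Ctbp loss in the description of DKO_Dppa2. Whether these cells also lack Dux, as their title says, is not settled by these values. The 10 embryonic stem cell markers summed to between 2032 and 3975 CPM in every library. The 10 fibroblast markers, a sign of feeder cells, summed to 22.2 to 56.6 CPM in the genotype set, 18.6 to 57.2 CPM in the Pramel7 set and 32.3 to 57.8 CPM in the time course. Between 2 and 7 of the 10 had 3 counts or fewer in every library of a group, the defining marker Lum in every group and Postn in all but day 12. Thy1 and Pdgfra, which other cells use too, rose in CtbpDKO against WT, and with Fbln1 they fell in DuxKO of the genotype set and rose in Ctbp_DuxTKO and in DuxKO_P7OE against DuxKO. The part of fibroblasts in the Hox results was not tested.

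Regulatory sequence differed between the members that the results below turn on. RefSeq promoter windows (build GRCm38.p6) were found for 22 of the 39 genes, in 24 windows, and 250 bases upstream of a start site were searched in each. The Hoxd13, Hoxd3, Hoxd4 and Hoxa3 windows are shown as examples of genes with firmer calls below, which also include Hoxd11, Hoxa7 and Hoxa13. CpG sites, the bases that CpG islands are built from, are in capitals. Windows are written 5′ to 3′ on the strand of the gene.
Hoxd13, chr2:74667975-74668224, plus strand: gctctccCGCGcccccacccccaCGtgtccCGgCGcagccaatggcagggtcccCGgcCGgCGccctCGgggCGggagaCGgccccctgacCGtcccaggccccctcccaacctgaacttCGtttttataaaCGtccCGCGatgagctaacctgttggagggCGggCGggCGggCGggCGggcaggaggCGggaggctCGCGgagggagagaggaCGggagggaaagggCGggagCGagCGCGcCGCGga
Hoxd3, chr2:74711743-74711992, plus strand: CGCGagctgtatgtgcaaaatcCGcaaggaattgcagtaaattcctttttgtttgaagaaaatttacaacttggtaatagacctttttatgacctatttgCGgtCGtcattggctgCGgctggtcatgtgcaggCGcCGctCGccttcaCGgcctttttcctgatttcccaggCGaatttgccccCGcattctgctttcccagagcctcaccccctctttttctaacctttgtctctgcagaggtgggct
Hoxd4, chr2:74721728-74721977, plus strand: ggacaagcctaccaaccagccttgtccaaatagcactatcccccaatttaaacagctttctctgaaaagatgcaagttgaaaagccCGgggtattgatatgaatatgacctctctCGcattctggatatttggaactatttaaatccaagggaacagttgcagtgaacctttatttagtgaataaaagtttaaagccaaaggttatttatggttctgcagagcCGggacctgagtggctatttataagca
Hoxa3, chr6:52213068-52213317, minus strand: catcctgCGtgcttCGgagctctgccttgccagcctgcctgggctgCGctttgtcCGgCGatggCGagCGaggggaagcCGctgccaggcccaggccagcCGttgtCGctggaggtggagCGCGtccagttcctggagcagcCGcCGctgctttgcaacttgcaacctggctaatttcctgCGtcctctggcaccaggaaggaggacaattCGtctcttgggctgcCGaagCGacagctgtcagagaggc
The Hoxd13 window held 31 CpG sites and Hoxa3 held 18, while Hoxd3 had 12 and Hoxd4 had 3. Among the windows not shown, Hoxa13 held 35 CpG sites, Hoxa7 held 7, and those of Hoxd11 held 20 and 2. The median was 12.5 CpG over the Hox windows and 6 over all 32851 promoter windows. At least 10 CpG sites stood in 62.5% of Hox windows and in 37.8% of all windows. The letters TATAAA, the core of a TATA box, searched on both strands with overlaps allowed, occurred in 4 of the 24 Hox windows (16.7%) and in 12.4% of all windows. They occur in the Hoxd13 and Hoxd4 windows shown and in neither of the others. A match is a description of the letters, not of a site in use.

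By the annotation of the same build, the Hoxb cluster spans chr11:96194316-96368254, Hoxc chr15:102921131-103036856 and Hoxd chr2:74668225-74765142. The build named in the submitters' processing notes is mm10. Spans of 20 of the 39 genes overlap another annotated gene, and 10 overlap another Hox gene, which are Hoxd10 with Hoxd11, Hoxd3 with Hoxd4, Hoxa3 to Hoxa6, and Hoxb3 with Hoxb4. The strand setting of the counting is not given in the sources used here, so reads of overlapping or antisense transcripts in these places may be shared.

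Most Hox genes were read at a few counts per library. Single counts ran from 0 to 229 in the genotype set, from 0 to 193 in the Pramel7 set and from 0 to 343 in the time course. A gene is called at the floor in a group when every library of that group has 3 counts or fewer. In WT of the genotype set 11 members were at the floor, 2 of Hoxa (Hoxa6, Hoxa13), 5 of Hoxb (Hoxb1, Hoxb2, Hoxb4, Hoxb5, Hoxb6), 4 of Hoxc (Hoxc4, Hoxc5, Hoxc6, Hoxc8) and 0 of Hoxd. The number at the floor was 8 in DuxKO, 9 in Dppa2KO, 8 in CtbpDKO, 9 in Ctbp_DuxTKO and 15 in DKO_Dppa2. In the Pramel7 set it was 6 in WT, 5 in DuxKO, 11 in P7KO, 13 in P7OE and 20 in DuxKO_P7OE, the group with the shallowest libraries. In the time course it was 10 on days 0 and 3, 2 on days 9 and 12, and 7 on day 18. Only Hoxa6 stayed at the floor in all 12 libraries of the genotype set, and Hoxa6, Hoxa13 and Hoxb5 did so in the Pramel7 set. No member did so over the 10 libraries of the time course, where the lowest was Hoxb5, with 4 counts in 1 day 12 library and 0 in the other 9.

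After the filter on low counts 29 members could be tested in the genotype set, 23 in the Pramel7 set and 31 in the time course. Hoxb genes were 6 of the 10 left out in the genotype set, 7 of the 16 in the Pramel7 set and 4 of the 8 in the time course, where Hoxc genes were the other 4. Members that pass only through the group where they are high have to differ between groups, so counts below describe the tested members and not the family. Throughout, a gene is said to have risen or fallen when its Benjamini-Hochberg adjusted p, taken over all tested genes of the set, was under 0.05 in edgeR's quasi-likelihood test. Log2 fold changes carry their standard error (SE).

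**Figure D1:**
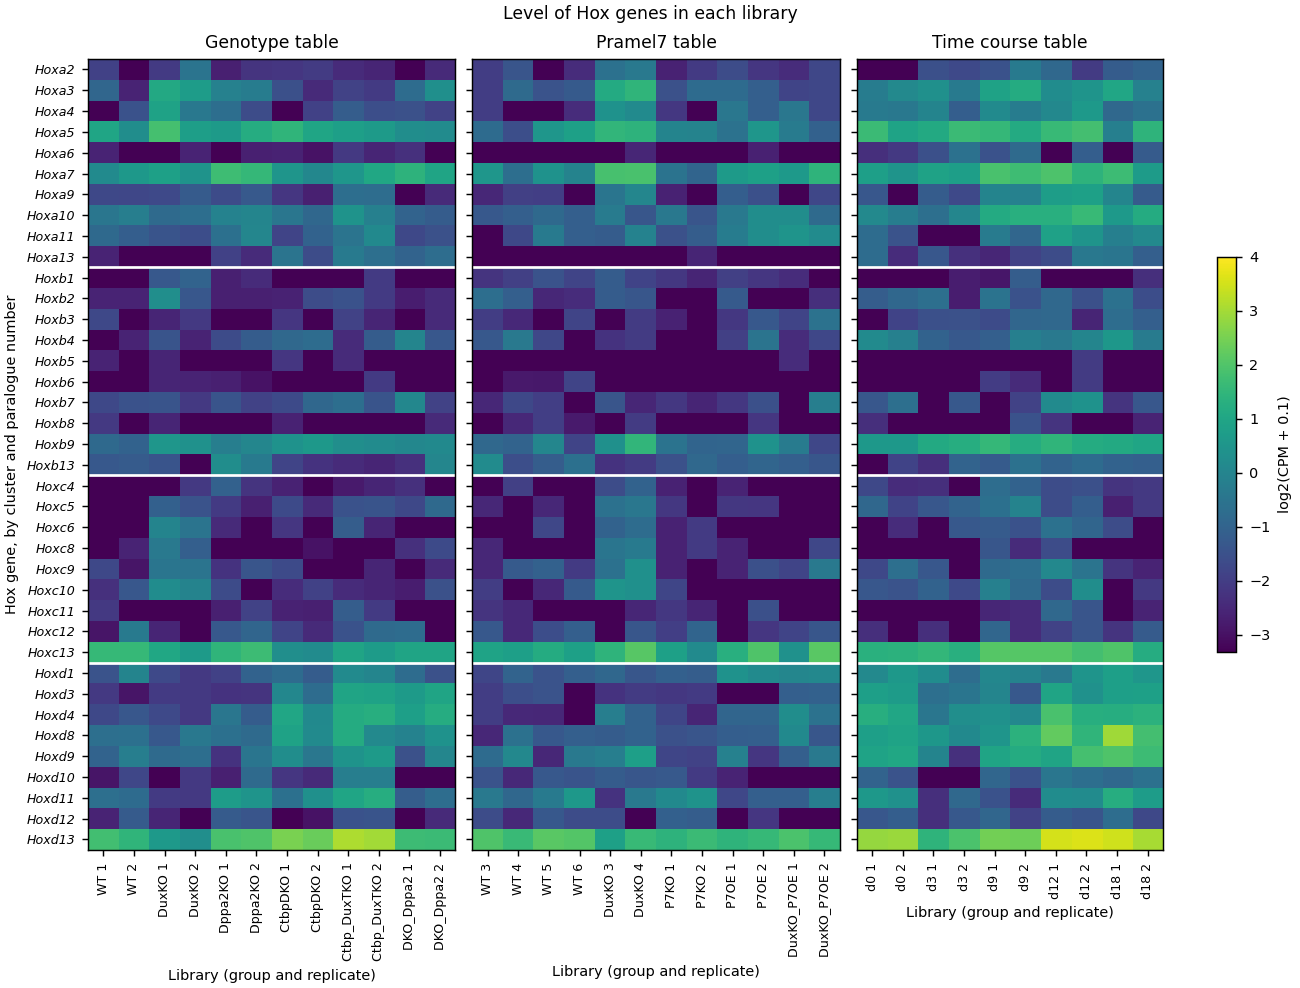
Level of Hox genes (rows, by cluster and paralogue number) in each of the 34 libraries (columns), coloured by log2(CPM + 0.1). Dark rows are at or near 0 counts. Hoxd13, Hoxa5, Hoxa7 and Hoxc13 are bright in most libraries. In the genotype set Hoxd13, Hoxd11, Hoxd4 and Hoxd3 have their highest means in Ctbp_DuxTKO. Hoxd12 is at the floor in CtbpDKO, and Hoxd12 and Hoxd10 are at the floor in DKO_Dppa2.

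The sums over each cluster showed that the clusters did not move together. Hoxd summed to 5.54 and 6.19 CPM in the WT libraries, to 11.2 ± 2.03 CPM in CtbpDKO and to 19.2 ± 0.963 CPM in Ctbp_DuxTKO (SD, n = 2 each). In DuxKO the Hoxd sum was 2.99 ± 0.000490 CPM, below both WT libraries (SD, n = 2). Hoxa went the other way with Dux: its sum was 6.39 ± 1.25 CPM in WT and 15.5 ± 2.67 CPM in DuxKO (SD, n = 2 each), and it was at 7.84 and 8.02 CPM in the Ctbp_DuxTKO libraries. Hoxc summed to 3.68 ± 0.416 CPM in WT, 4.98 ± 0.936 CPM in DuxKO and 1.78 ± 0.419 CPM in CtbpDKO, with no overlap between the 3 groups (SD, n = 2 each). Hoxb summed to 1.28 ± 0.236 CPM in WT, 2.56 ± 0.171 CPM in CtbpDKO and 3.07 ± 1.10 CPM in DuxKO (SD, n = 2 each). A sum gives most weight to the gene with most counts, which is Hoxd13 in Hoxd and Hoxc13 in Hoxc. These sums are descriptions and were not tested. In RNA from whole cultures, fewer cells using a gene and less RNA per cell cannot be told apart.

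**Figure D2:**
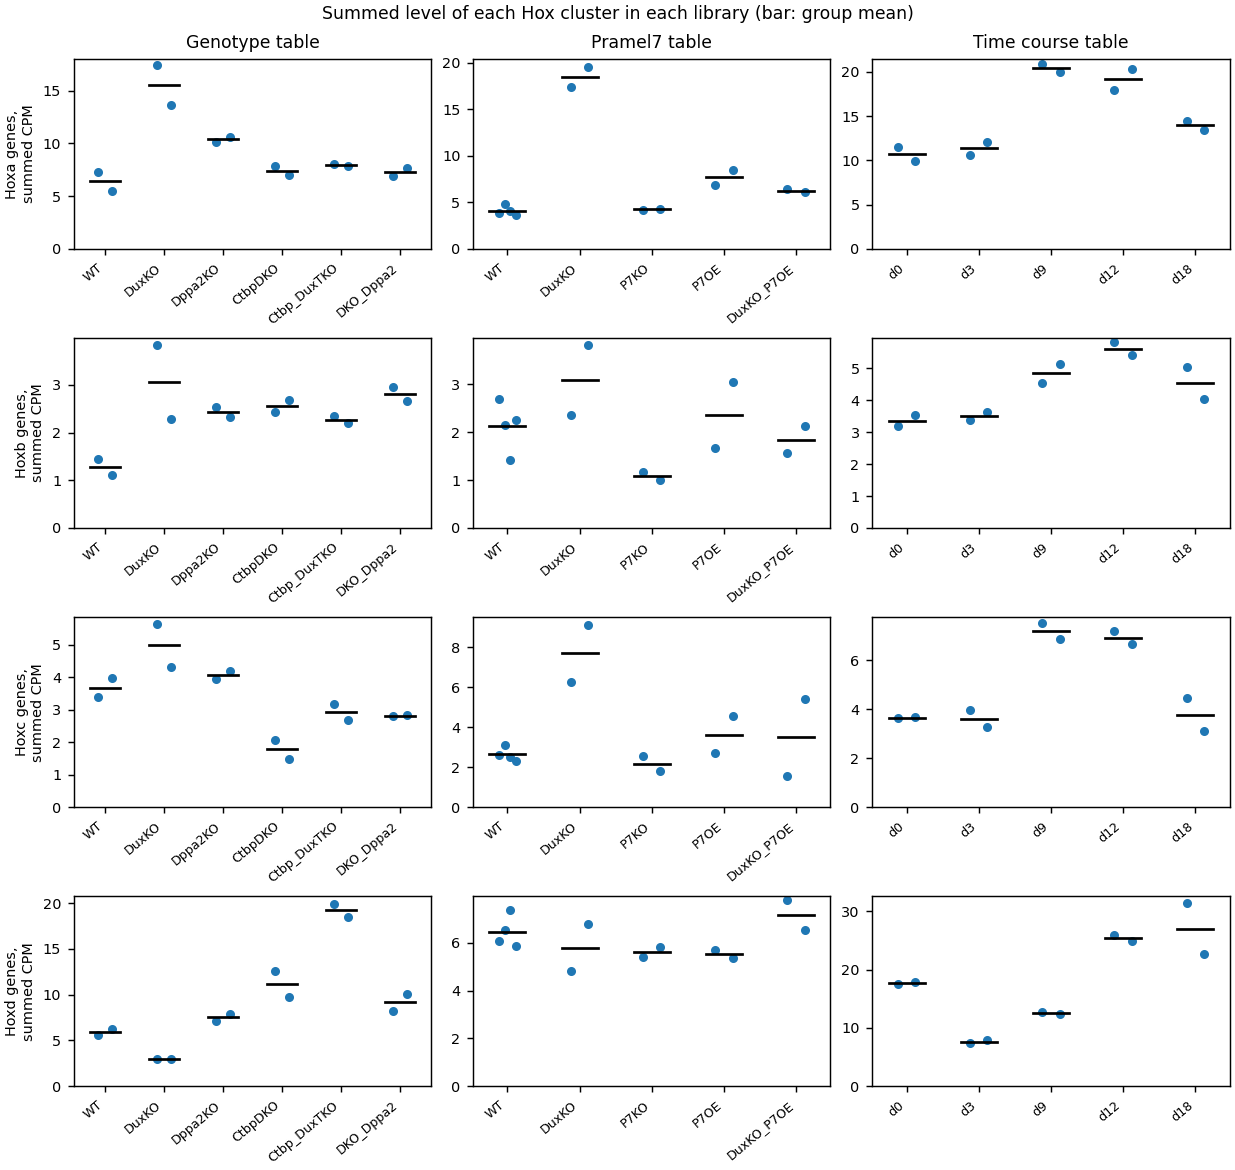
Summed CPM of the Hoxa, Hoxb, Hoxc and Hoxd genes (rows) in each library of the 3 sets (columns); each point is a library and each bar a group mean. Hoxd is highest in Ctbp_DuxTKO (mean 19.2 CPM) and lowest in DuxKO (2.99 CPM) of the genotype set, while Hoxa is highest in DuxKO in both sets that hold it (15.5 and 18.5 CPM).

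Loss of both Ctbp genes went with higher levels of Hoxd3, Hoxd4 and Hoxd13. In CtbpDKO against WT, 7 of the 29 tested members rose, beside 14.7% of all tested genes, and 1 fell, beside 11.4% of all. The median log2 fold change was -0.11 over the tested members and 0.01 over all tested genes, so the rises were of single genes. Hoxd3, a low-numbered member with a role in the axial skeleton, had 31 and 18 counts in the CtbpDKO libraries, where WT had 4 and 1. The 2 groups were well apart, with a log2 fold change of 3.06 (SE 0.66, adjusted p = 0.00354). Its neighbour Hoxd4, a retinoic acid target of the hindbrain, was at 0.201 and 0.293 CPM in WT and at 1.92 and 1.01 CPM in CtbpDKO. This was a log2 fold change of 2.54 (SE 0.51, adjusted p = 0.00217). Because the spans of Hoxd3 and Hoxd4 overlap, part of the rise of one may be read in the other.

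Hoxd13 is the gene with the highest number in its cluster and patterns the digits and the hindgut. It stood at 3.35 and 2.64 CPM in WT and at 5.70 and 4.92 CPM in CtbpDKO, again with no overlap. This gave a log2 fold change of 0.82 (SE 0.20, adjusted p = 0.00742), and the call was lost without WT replicate 2 (adjusted p = 0.0913) or CtbpDKO replicate 1 (adjusted p = 0.0733). The rest of the Hoxd genes did not pass. Hoxd8 was at 0.537 and 0.554 CPM in WT and at 1.77 and 1.03 CPM in CtbpDKO, while Hoxd1 was at 0.268 and 0.880 CPM and at 0.488 and 0.335 CPM, overlapping groups.

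Hoxc13, the terminal gene of Hoxc and a regulator of hair keratins, was the single member that fell. It was at 2.92 and 2.87 CPM in WT and at 1.13 and 1.06 CPM in CtbpDKO, a log2 fold change of -1.40 (SE 0.26, adjusted p = 0.0015). The calls for Hoxd3, Hoxd4 and Hoxc13 held whichever of the 4 libraries was left out. Hoxd3 passed the filter through the groups without Ctbp, where it is high, and Hoxd4 did so for the most part. Their rises are therefore descriptions. Hoxb9, a trunk gene, rose from 0.470 and 0.391 CPM to 1.22 and 1.40 CPM (log2 fold change 1.60, SE 0.39, adjusted p = 0.00759). It passed unless WT replicate 2 was left out (adjusted p = 0.0645).

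Another 3 rises rested on few counts. Hoxa13, a limb and genital gene, went from 2 and 0 counts (WT) to 20 and 8 (CtbpDKO), at least 4.2-fold higher when WT is set at 3 counts per library. That call was lost without WT replicate 2 (adjusted p = 0.21) or CtbpDKO replicate 1 (adjusted p = 0.253). Hoxb4, known for its use in expanding blood progenitors, had 0 and 2 counts against 15 and 18, at least 4.84-fold higher, and was lost with any 1 of the 4 libraries left out (adjusted p from 0.0541 to 0.199). Hoxc5 went from 0 in both WT libraries to 7 and 3 counts, at least 1.5-fold higher, and was likewise lost with any library left out (adjusted p from 0.0568 to 0.19).

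Markers of trophoblast, the lineage of the placenta, moved with the loss of Ctbp. The 8 markers summed to 37.8 to 40.2 CPM in WT, 154 to 167 CPM in CtbpDKO, 154 to 160 CPM in Ctbp_DuxTKO and 155 to 161 CPM in DKO_Dppa2. In CtbpDKO 4 of the 7 tested markers, Krt8, Krt18, Ascl2 and Hand1, rose, and Cdx2 was not called. Elf5 was above the floor in CtbpDKO but at the floor in WT, Ctbp_DuxTKO and DKO_Dppa2. Mesoderm and primitive streak markers summed to 7.20 to 8.05 CPM in WT and 18.4 to 19.1 CPM in CtbpDKO, and 2 of 5 tested, Eomes and Hand1, rose. The primitive endoderm sum was 118 to 137 CPM in WT and 124 to 128 CPM in CtbpDKO, where 3 of 7 markers, Gata4, Gata6 and Pdgfra, rose. The part of these cell types in the Hox results was not tested.

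**Figure D3:**
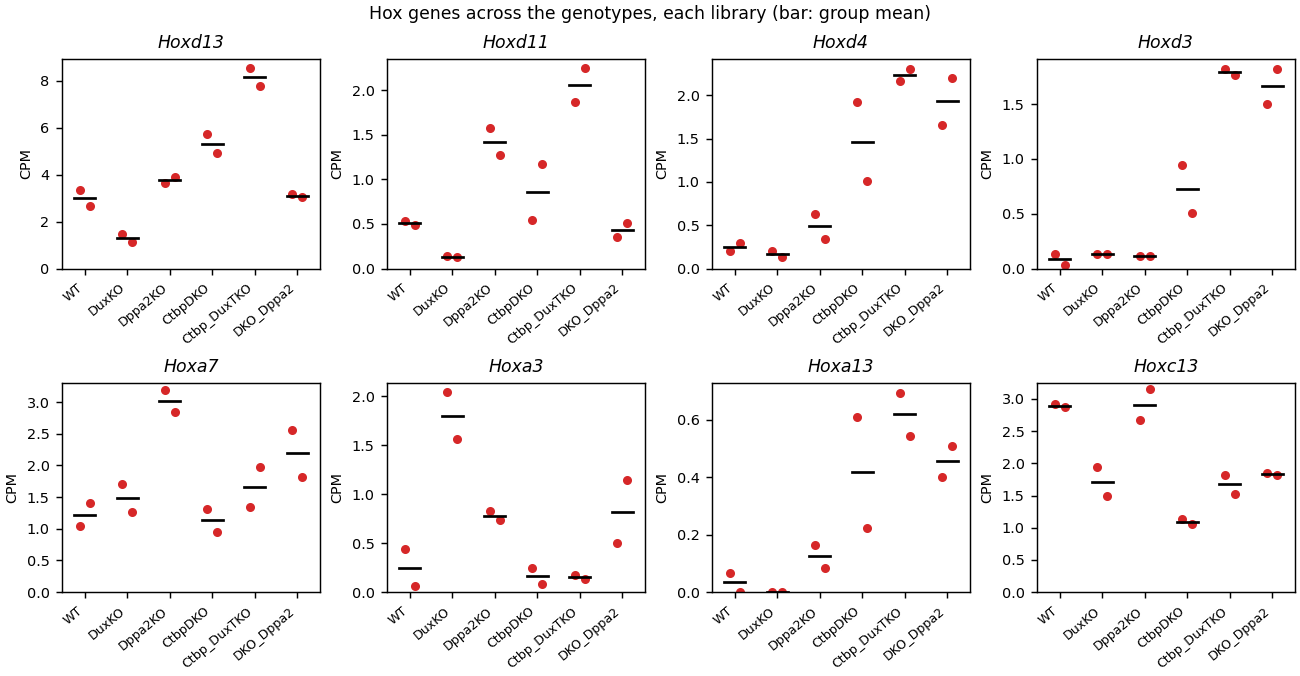
CPM of 8 Hox genes in each library of the genotype set (points), with group means (bars). Hoxd13, Hoxd11, Hoxd4 and Hoxd3 have their highest means in Ctbp_DuxTKO, with DKO_Dppa2 overlapping for Hoxd4 and Hoxd3. Hoxa3 is highest in DuxKO, and Hoxc13 is lower in CtbpDKO (1.13 and 1.06 CPM) than in WT (2.92 and 2.87 CPM).

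Loss of Dux alone went with higher levels of Hoxb9 and of some Hoxa and Hoxc genes in 2 sets that share no library. Over the 9 tested Hoxa genes the median log2 fold change was 0.43 in the genotype set, with 6 genes above 0 and 3 below. It was 2.20 over the 9 tested in the Pramel7 set. In the genotype set 6 of the 29 tested members rose, beside 7.94% of all genes, and 2 fell, beside 9.56% of all. In the Pramel7 set 10 of the 23 tested rose, beside 7.76% of all genes, and 0 fell, beside 8.91% of all. There, DESeq2 called 10 members, beside 3818 of all 20161 genes. In edgeR 16 members had an unadjusted p under 0.05 in either direction, beside 5984 of all. Among the 22 members tested in both sets, 5 rose in both, with Hoxa3, Hoxb9, Hoxc5 and Hoxc8 among them, which is 83.3% of the 6 risen in the genotype set and 50% of the 10 risen in the Pramel7 set. Hoxc5 and Hoxc8 were tested in the Pramel7 set through their DuxKO counts, since each other library there held 4 counts or fewer. Hoxc8 passed the filter of the genotype set through DuxKO as well. The overlap is therefore a description and supports nothing. No member was called in opposite directions.

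Markers of other cell types moved with the loss of Dux as well. In the genotype set all 7 primitive endoderm markers fell (118 to 137 CPM in WT, 77.2 to 77.6 CPM in DuxKO, summed), and so did 5 of 10 embryonic stem cell markers (3046 to 3061 CPM in WT, 2320 to 2354 CPM in DuxKO). Of 4 tested neural markers 3 rose and 1 fell (83.2 to 85.1 CPM and 104 to 112 CPM), and of 7 tested trophoblast markers 4 rose and 1 fell (37.8 to 40.2 CPM and 51.4 to 55.4 CPM). In the Pramel7 set 0 of 7 primitive endoderm markers were called (27.9 to 53.7 CPM in WT, 59.9 to 64.1 CPM in DuxKO). There 2 stem cell markers rose and 4 fell, 1 neural marker rose and 2 fell, and 1 trophoblast marker rose and 3 fell. The part of these cell types in the Hox results was not tested.

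Hoxa3, which acts in the pharyngeal arches, was at 0.436 and 0.0652 CPM in WT of the genotype set and at 2.04 and 1.56 CPM in DuxKO. That log2 fold change was 2.83 (SE 0.69, adjusted p = 0.0126), and it was lost without WT replicate 2 (adjusted p = 0.099) or DuxKO replicate 1 (adjusted p = 0.0743). Without WT replicate 1 it was 4.70. Hoxa3 in the Pramel7 set ran from 0.151 to 0.482 CPM in WT and was at 2.13 and 2.68 CPM in DuxKO. This second difference, 2.96 on the log2 scale (SE 0.46, adjusted p = 0.000812), held with any library left out.

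Hoxb9 rose in the genotype set from 0.470 and 0.391 CPM to 1.33 and 1.20 CPM. The difference, 1.54 on the log2 scale (SE 0.39, adjusted p = 0.015), was lost without WT replicate 1 (0.0594), WT replicate 2 (0.102) or DuxKO replicate 1 (0.0778, all adjusted p). Hoxb9 in the Pramel7 set was at 0.454, 0.402, 0.924 and 0.182 CPM in WT and at 1.17 and 2.72 CPM in DuxKO (log2 fold change 1.98, SE 0.60, adjusted p = 0.0405). There it passed only with WT replicate 5 left out, or with none: without WT replicates 3, 4 or 6, or DuxKO replicates 3 or 4, the adjusted p was 0.0687, 0.076, 0.0638, 0.0593 and 0.45. The DuxKO libraries were above every WT library in both sets, but the Pramel7 call was thin.

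Hoxc5, Hoxc6 and Hoxc8 were near 0 in WT, unlike Hoxc13. Hoxc6, a thoracic gene, had 0 counts in both WT libraries of the genotype set and 26 and 18 in DuxKO, at least 7.47-fold higher than 3 counts per library. Its adjusted p was 0.0208 and was between 0.0625 and 0.129 with any 1 library left out. Hoxc6 was not tested in the Pramel7 set, where it had 7 and 14 counts in DuxKO against 0, 0, 5 and 0 in WT. Hoxc8 was at least 5.27-fold higher in the genotype set (20 and 11 counts against 0 and 2) and at least 5.47-fold higher in the Pramel7 set (11 and 20 counts against 2, 0, 0 and 0). In the first set Hoxc8 was lost with any library left out (adjusted p from 0.114 to 0.289), and in the second without DuxKO replicate 3 (0.0593) or 4 (0.0876). Over all libraries of the genotype set Hoxc8 averaged 3.42 counts and Hoxc6 averaged 5.08. Both passed the filter there through DuxKO, where they are high, so these rises are descriptions. Hoxc5 was at least 3.23-fold higher in the genotype set, lost without WT replicate 1 (0.097), WT replicate 2 (0.102) or DuxKO replicate 1 (0.0764). It was at least 4.95-fold higher in the Pramel7 set, lost without DuxKO replicate 3 (0.124) or 4 (0.169). Hoxc10, a lumbar gene, was at 1.29 and 1.18 CPM in DuxKO of the Pramel7 set and between 0 and 0.318 CPM in the 4 WT libraries (log2 fold change 3.16, SE 0.94, adjusted p = 0.0429). It was lost without WT replicates 3 (0.0655), 4 (0.0613) or 5 (0.0978) and without DuxKO replicates 3 (0.219) or 4 (0.205). Hoxc10 passed the filter of that set through its DuxKO counts. In the genotype set Hoxc10 was at 0.101 and 0.293 CPM in WT and at 1.09 and 0.864 CPM in DuxKO and did not pass.

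Some rises were called in the Pramel7 set alone. Hoxa7, a trunk gene, was at 1.32, 0.522, 1.23 and 0.864 CPM in WT and at 3.52 and 3.61 CPM in DuxKO, a log2 fold change of 1.84 (SE 0.36, adjusted p = 0.00366) that held with any library left out. Hoxa4 was at 0.151, 0, 0 and 0.0910 CPM in WT and at 1.23 and 1.04 CPM in DuxKO (log2 fold change 4.11, SE 0.93, adjusted p = 0.00923), lost without DuxKO replicate 3 (0.0718) or 4 (0.0624). Hoxa9, known from leukaemia, had 11 and 26 counts in DuxKO and 0 to 4 in WT (adjusted p = 0.0329). It was lost without WT replicate 3 (0.0634), WT replicate 5 (0.0508), DuxKO replicate 3 (0.136) or DuxKO replicate 4 (0.274). Hoxd4 had 14 and 11 counts against 4, 2, 2 and 0 (adjusted p = 0.0273), and was lost without WT replicate 4 (0.0514), WT replicate 5 (0.0601), DuxKO replicate 3 (0.26) or DuxKO replicate 4 (0.0782), and with the replicate number as a block (0.0697). Whether these effects differ between the 2 sets was not tested.

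The fall of Hoxd genes in DuxKO was seen in 1 set. Hoxd13 was at 3.35 and 2.64 CPM in WT of the genotype set and at 1.46 and 1.13 CPM in DuxKO, a log2 fold change of -1.21 (SE 0.22, adjusted p = 0.00249) that held with any library left out. Hoxd11 was at 0.537 and 0.489 CPM against 0.136 and 0.133 CPM (log2 fold change -1.90, SE 0.59, adjusted p = 0.0411), lost with any 1 library left out (adjusted p from 0.109 to 0.159). The Pramel7 libraries had a Hoxd13 level that ran from 3.01 to 4.23 CPM in WT and stood at 1.68 and 2.97 CPM in DuxKO, below every WT library but not called. The Hoxd sum there was 5.80 ± 1.40 CPM in DuxKO (SD, n = 2) and 6.46 ± 0.671 CPM in WT (SD, n = 4), overlapping groups, and without DuxKO replicate 3 its log2 ratio turned from -0.16 to 0.0720. The Hoxa sum of the same libraries was 18.5 ± 1.55 CPM (SD, n = 2) against 4.08 ± 0.516 CPM (SD, n = 4), well apart.

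**Figure D4:**
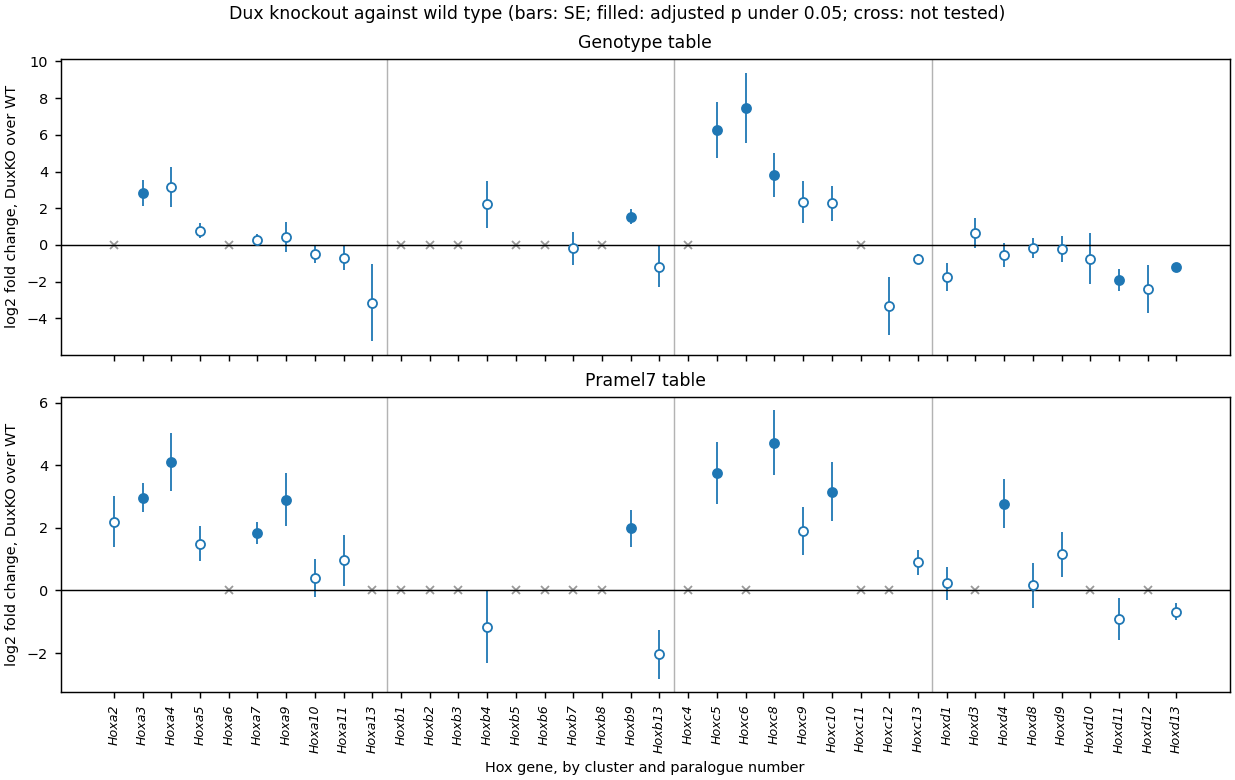
Log2 fold change of Hox genes in DuxKO over WT, in the genotype set (top) and the Pramel7 set (bottom), with SE bars; filled points passed adjusted p under 0.05 and crosses were not tested. Hoxa3, Hoxb9, Hoxc5 and Hoxc8 are filled and above 0 in both sets; Hoxd13 and Hoxd11 are filled and below 0 in the genotype set.

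Loss of the Ctbp genes in cells without Dux gave the broadest change of the Hoxd cluster. In Ctbp_DuxTKO against DuxKO, 9 of 29 tested members rose, beside 21.4% of all genes, and 5 fell, beside 19.6% of all, so the shares were not far from those of all genes. Of the 9 that rose 7 were Hoxd genes, and the median log2 fold change was 2.83 over the 9 Hoxd genes and 0.04 over all tested genes. Hoxd13 was at 1.46 and 1.13 CPM in DuxKO and at 8.54 and 7.78 CPM in Ctbp_DuxTKO, a log2 fold change of 2.65 (SE 0.22, adjusted p = 6.96e-07). Hoxd11, a forearm and kidney gene, was at 0.136 and 0.133 CPM against 1.86 and 2.24 CPM (log2 fold change 3.89, SE 0.54, adjusted p = 7.56e-05). Hoxd3 was at 0.136 and 0.133 CPM against 1.82 and 1.77 CPM, and Hoxd4 at 0.204 and 0.133 CPM against 2.17 and 2.31 CPM. Their log2 fold changes were 3.70 (SE 0.59, adjusted p = 0.000245) and 3.70 (SE 0.53, adjusted p = 0.000109). In each of these 4 genes both triple knockout libraries were far above both DuxKO libraries, and the calls held with any library left out. Hoxd3 and, for the most part, Hoxd4 were tested through the groups without Ctbp, so their rises are descriptions.

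The other Hoxd rises were less firm. Hoxd8 was at 0.306 and 0.665 CPM against 2.17 and 0.985 CPM, lost without DuxKO replicate 1 (adjusted p = 0.161) or Ctbp_DuxTKO replicate 1 (0.243). Hoxd1, the most anterior gene of its cluster, was at 0.204 and 0.133 CPM against 1.04 and 0.917 CPM, lost without DuxKO replicate 1 (0.057), DuxKO replicate 2 (0.0992) or Ctbp_DuxTKO replicate 1 (0.0622). Hoxd10, which shares its span with Hoxd11, had 0 and 4 counts against 18 and 23, lost without DuxKO replicate 1 (0.212), Ctbp_DuxTKO replicate 1 (0.111) or replicate 2 (0.111). Its log2 fold change was 3.46, and 7.53 without DuxKO replicate 2. Hoxa13 rose from 0 counts in both DuxKO libraries to 16 and 16, at least 6.13-fold, and held with any library left out. Hoxa11 was at 0.272 and 0.233 CPM against 0.607 and 1.02 CPM (adjusted p = 0.0447), lost with any 1 library left out (adjusted p from 0.0577 to 0.274).

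Some genes that stood high in DuxKO were low again in the triple knockout. Hoxa3 was at 2.04 and 1.56 CPM in DuxKO and at 0.173 and 0.136 CPM in Ctbp_DuxTKO (log2 fold change -3.52, SE 0.76, adjusted p = 0.00222). The groups were far apart, and the call held with any library left out. Hoxc10, Hoxc9 and Hoxc8 fell to the floor, at least 8.42-fold, 5.22-fold and 4.51-fold. Hoxc10 and Hoxc9 were lost with any 1 library left out (adjusted p from 0.0511 to 0.108 and from 0.0781 to 0.212). Hoxc8 was lost without DuxKO replicate 1 (0.0582), Ctbp_DuxTKO replicate 1 (0.0589) or replicate 2 (0.0671). This comparison shares its DuxKO libraries with DuxKO against WT. Hoxc8 was tested through its DuxKO counts, so its fall from them is a description.

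Against CtbpDKO, with Ctbp lost in both groups, the triple knockout had 0 members called among 29, beside 8.15% of all genes called in either direction. In edgeR 9 members had an unadjusted p under 0.05, beside 4839 of all 21193 genes, and DESeq2 called 0, beside 1782 of all. All 9 Hoxd genes had a log2 fold change above 0, with a median of 1.24 over them and 0.00 over all genes. Hoxd13, at 5.70 and 4.92 CPM in CtbpDKO and at 8.54 and 7.78 CPM in Ctbp_DuxTKO, was among those that did not pass although the groups did not overlap.

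Whether the Ctbp effect differs with and without Dux was tested as an interaction over WT, DuxKO, CtbpDKO and Ctbp_DuxTKO. It was higher without Dux for 4 of the 29 tested members, beside 9.82% of all genes, and lower for 2, beside 9.64% of all. These shares were not far from those of all genes. For Hoxd13 the Ctbp effect was larger by 1.83 on the log2 scale without Dux (SE 0.29, adjusted p = 0.000944), and for Hoxd11 by 3.14 (SE 0.72, adjusted p = 0.00885). Both held with each of the 8 libraries left out. The term uses the DuxKO libraries in which Hoxd13 and Hoxd11 were called lower than in WT, and neither fall was called in the Pramel7 set. Between Ctbp_DuxTKO and CtbpDKO 0 members were called. Hoxd12, Hoxb9 and Hoxc13 passed but lost the call with 7, 8 and 6 of the 8 libraries left out, with adjusted p up to 0.242, 0.0924 and 0.0805. The libraries that ended the Hoxd12 call were all but WT replicate 1, and for Hoxc13 they were both of WT, both of CtbpDKO, DuxKO replicate 2 and Ctbp_DuxTKO replicate 1. Hoxd12 rests on 0 to 10 counts per library, and its value ran from 4.75 without WT replicate 2 to 9.43 without DuxKO replicate 1.

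Primitive endoderm markers moved with the triple knockout. The 7 markers, all above the floor there, summed to 463 to 479 CPM in Ctbp_DuxTKO, 77.2 to 77.6 CPM in DuxKO, 124 to 128 CPM in CtbpDKO and 118 to 137 CPM in WT. All 7 rose against DuxKO and against CtbpDKO. The part of these cells in the Hox results was not tested.

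Without Dppa2, Hoxa7 and Hoxd11 rose. In Dppa2KO against WT these were 2 of 29 tested members, a share near that of all genes, 7.67%, and 0 fell, beside 8.69% of all. Hoxa7 was at 1.04 and 1.40 CPM in WT and at 3.19 and 2.84 CPM in Dppa2KO, and Hoxd11 at 0.537 and 0.489 CPM against 1.57 and 1.28 CPM. Neither overlapped, with log2 fold changes of 1.30 (SE 0.32, adjusted p = 0.0156) and 1.47 (SE 0.45, adjusted p = 0.0399). Hoxa7 was lost without WT replicate 1 (0.119) or Dppa2KO replicate 1 (0.0831), and Hoxd11 with any library left out (from 0.0741 to 0.175).

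Removing the Ctbp genes from cells that lacked Dppa2 again went with higher Hoxd3 and Hoxd4. In DKO_Dppa2 against Dppa2KO 2 members rose and 1 fell, where 15.2% of all genes rose and 15.2% fell. Hoxd3 had 4 and 4 counts in Dppa2KO and 30 and 43 in DKO_Dppa2, a log2 fold change of 3.85 (SE 0.59, adjusted p = 0.000284) that held with any library left out. Hoxd4 was at 0.633 and 0.340 CPM against 1.65 and 2.20 CPM (log2 fold change 1.98, SE 0.46, adjusted p = 0.00512), lost without Dppa2KO replicate 2 (0.0516). So Hoxd3 and Hoxd4 were called higher in each of the 3 comparisons that remove Ctbp, which use separate libraries but come from 1 fit. Hoxd3 had few counts in every group that keeps the Ctbp genes, so it was tested through the groups without them. Hoxd4 was low in WT and DuxKO and passed the filter largely through the same groups. The repeat of both genes over the 3 comparisons is therefore a description and supports nothing. Hoxd11 fell from 1.57 and 1.28 CPM to 0.351 and 0.508 CPM (log2 fold change -1.71, SE 0.48, adjusted p = 0.0153), lost without Dppa2KO replicate 1 (0.0711) or DKO_Dppa2 replicate 1 (0.0968). Against CtbpDKO, 1 member fell, beside 9.67% of all genes, and 0 rose, beside 5.75% of all. The gene that fell was Hoxd13, at 5.70 and 4.92 CPM in CtbpDKO and at 3.16 and 3.05 CPM in DKO_Dppa2 (log2 fold change -0.77, SE 0.20, adjusted p = 0.0215), lost with any library left out (from 0.0524 to 0.137). The primitive endoderm markers summed to 33.3 to 35.0 CPM in DKO_Dppa2, and their part was not tested.

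In cells that overexpressed Pramel7, a PRAME family gene of the early embryo, Hoxd1 and Hoxa4 rose against WT, while Hoxa3 fell against DuxKO cells. Whether the effects differ between the 2 backgrounds was not tested. Pramel7 itself was at 20.1 ± 8.62 CPM in P7OE and 53.0 ± 5.25 CPM in DuxKO_P7OE (SD, n = 2 each), and between 0.0757 and 0.154 CPM in the 4 WT libraries. In P7OE against WT 2 of 23 members rose, beside 11% of all genes, and 0 fell, beside 8.9% of all. Hoxd1 was at 0.189, 0.402, 0.269 and 0.364 CPM in WT and at 1.23 and 1.03 CPM in P7OE (log2 fold change 1.88, SE 0.46, adjusted p = 0.0126), lost without P7OE replicate 1 (0.13) or 2 (0.0633). Hoxa4 had 20 and 6 counts in P7OE and 4, 0, 0 and 2 in WT (adjusted p = 0.0481), and passed only when WT replicate 3, or none, was left out: the adjusted p was 0.0848, 0.0927, 0.0509, 0.315 and 0.12 without WT replicates 4, 5 and 6 and P7OE replicates 1 and 2. Primitive endoderm markers summed to 262 to 312 CPM in P7OE and 27.9 to 53.7 CPM in WT, and all 7 rose. Trophoblast markers summed to 54.0 to 59.0 CPM in P7OE and 97.8 to 217 CPM in WT, and 5 of 7 tested fell. Their part in the rises of Hoxd1 and Hoxa4 was not tested.

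In DuxKO cells the overexpression went with lower Hoxa genes. In DuxKO_P7OE against DuxKO 4 members fell, beside 9.83% of all genes, and 0 rose, beside 11.6% of all. Hoxa3 fell from 38 and 75 counts to 2 and 2, at least 8.51-fold. The groups did not overlap, and the call held with any library left out. Hoxc10 and Hoxc5 fell to 0 counts in both libraries, at least 4.37-fold and 2.13-fold, and were lost with any library left out (adjusted p from 0.111 to 0.157 and from 0.127 to 0.199). Both had passed the filter through their DuxKO counts, so these falls are descriptions. The Hoxc sum was 1.56 and 5.40 CPM in DuxKO_P7OE and 6.26 and 9.11 CPM in DuxKO. The 2 DuxKO_P7OE libraries hold 11089600 and 10123058 counts, so 3 counts stand for 0.275 and 0.289 CPM there. Primitive endoderm markers summed to 264 to 291 CPM in DuxKO_P7OE and to 59.9 to 64.1 CPM in DuxKO, and all 7 rose, while the trophoblast sum went from 99.3 to 104 CPM in DuxKO down to 46.9 to 47.3 CPM. Their part in the fall of Hoxa3 was not tested. Knockout of Pramel7 gave 0 calls among 23 members against WT, beside 9.48% of all genes called in either direction. In edgeR 3 had an unadjusted p under 0.05, beside 4852 of all 20161 genes, and DESeq2 called 1, beside 2462 of all. Pramel7 averaged 0.0522 ± 0.0738 CPM in P7KO (SD, n = 2).

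The time course follows 1 genotype, CtbpDKO, in which Ctbp2 rose and fell again. Ctbp2 was at 59.1 ± 0.281 CPM on day 0, 558 ± 20.5 CPM on day 3, 303 ± 10.0 CPM on day 9, 47.1 ± 3.30 CPM on day 12 and 53.6 ± 1.64 CPM on day 18 (SD, n = 2 each). The Hoxd sum moved opposite to Ctbp2 at each step up to day 12, with 17.7 ± 0.216, 7.59 ± 0.366, 12.6 ± 0.184, 25.4 ± 0.806 and 27.0 ± 6.18 CPM on the same days (SD, n = 2 each). Days 0, 3, 9 and 12 did not overlap in this sum, and both day 18 libraries were above day 9. The Hoxa and Hoxc sums had another course: Hoxa was at 10.8 and 11.3 CPM on days 0 and 3 and at 20.5, 19.2 and 13.9 CPM afterwards, and Hoxc at 3.65 and 3.61 CPM and then at 7.19, 6.93 and 3.78 CPM. With 5 days and 2 libraries each, these courses are descriptions.

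From day 0 to day 3, 0 members rose, beside 2.41% of all genes, and 3 fell, beside 2.59% of all. All 9 Hoxd genes had a log2 fold change below 0, with a median of -1.26 over them and 0.00 over all genes. Hoxd13 was at 7.07 and 7.42 CPM on day 0 and at 2.64 and 3.72 CPM on day 3, clearly apart (log2 fold change -1.19, SE 0.22, adjusted p = 0.00727), and was lost without day 3 replicate 1 (0.101). Hoxd10 fell from 8 and 6 counts to 0 and 0, at least 2.22-fold, and was lost with any library left out (from 0.0928 to 0.233). Hoxa11 fell from 10 and 6 counts to 0 and 0, at least 2.56-fold, and was lost without day 0 replicate 1 (0.127), day 3 replicate 1 (0.159) or replicate 2 (0.122). Hoxd4 and Hoxd3 did not pass, at 2.29 and 1.92 CPM against 0.636 and 1.12 CPM, and at 1.64 and 1.52 CPM against 0.538 and 0.612 CPM.

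Between days 3 and 9, 1 member rose, beside 0.524% of all genes, and 0 fell, beside 0.592% of all. Hoxa11 went from 0 and 0 counts to 20 and 10, at least 3.9-fold, and was lost with any library left out (adjusted p from 0.0576 to 0.181). From day 9 to day 12, 1 member rose, beside 1.87% of all genes, and 0 fell, beside 1.97% of all. The gene that rose was Hoxd13, from 5.34 and 5.11 CPM to 11.3 and 12.1 CPM, again with no overlap (log2 fold change 1.17, SE 0.21, adjusted p = 0.00584). Both day 12 libraries were above every earlier library, and the call was lost without day 9 replicate 1 (0.0507), day 9 replicate 2 (0.0614) or day 12 replicate 2 (0.0667). Day 18 against day 12 gave 0 calls, beside 0.82% of all genes called in either direction, and day 18 against day 0 gave 0, beside 0.514%. In edgeR 4 and 3 members had an unadjusted p under 0.05 in these comparisons, beside 2502 and 2519 of all 20612 genes. DESeq2 called 0 and 1 members, beside 319 and 268 of all. Hoxd13 was at 11.1 and 8.21 CPM on day 18. Hoxd8 was at 7.64 and 3.39 CPM there, against 1.64 and 1.79 CPM on day 0, and did not pass.

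Markers of other cell types moved over the same days. The trophoblast sum was 154 to 167 CPM on day 0, 90.5 to 92.6 CPM on day 3, 135 to 141 CPM on day 9, 174 to 189 CPM on day 12 and 198 to 203 CPM on day 18, and from day 0 to day 3 Krt8 and Krt18 fell, 2 of 7 tested. Mesoderm and primitive streak markers summed to 22.2 to 23.1 CPM on day 0, 11.2 to 12.3 CPM on day 3, 25.4 to 29.0 CPM on day 12 and 21.9 to 22.5 CPM on day 18, and day 9 lay between days 3 and 12. Eomes was the called member of that list in both steps, lower on day 3 than on day 0 and higher on day 12 than on day 9. Primitive endoderm markers summed to 47.7 to 58.4 CPM on day 0 and 192 to 212 CPM on day 18, and 4 of 7 rose between these days. The part of these cell types was not tested, and growth in culture over 18 days cannot be told apart from the effect of day.

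**Figure D5:**
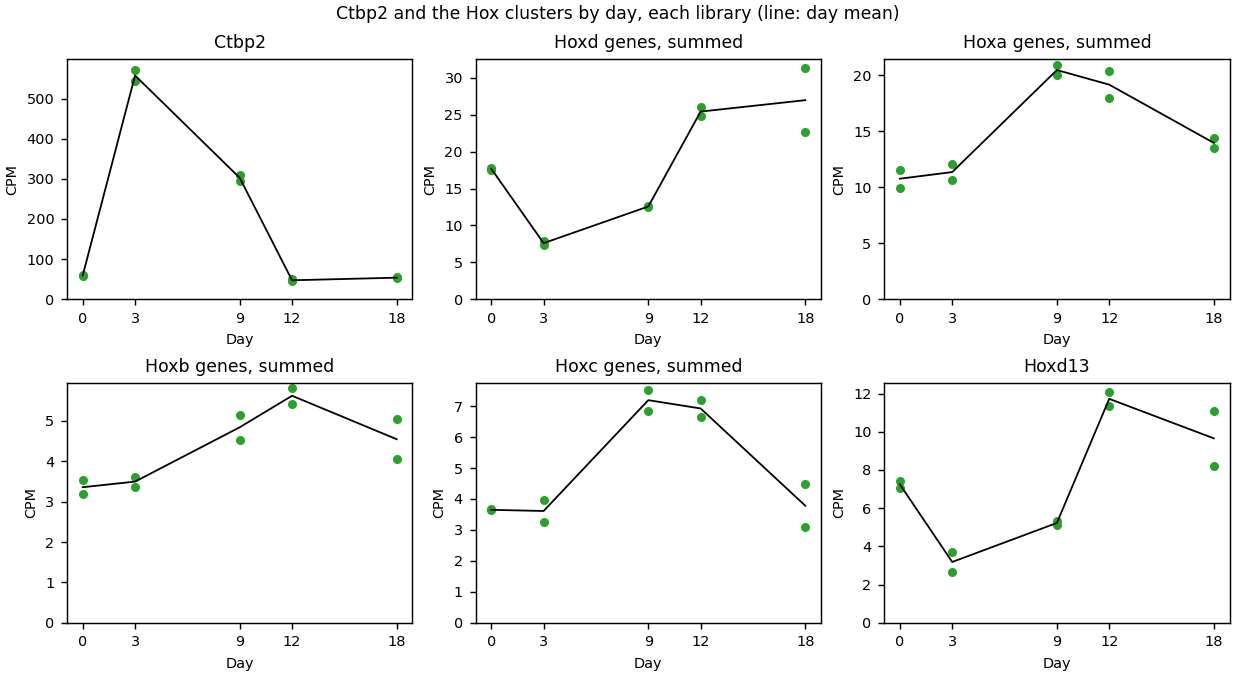
CPM of Ctbp2, of the summed Hox clusters and of Hoxd13 by day in the time course; each point is a library and lines join day means. Ctbp2 peaks on day 3 (558 CPM), where the Hoxd sum (7.59 CPM) and Hoxd13 (2.64 and 3.72 CPM) are lowest, while the Hoxa and Hoxc sums have their highest means on day 9 (20.5 and 7.19 CPM), overlapping with day 12.

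Hoxa5, a gene of the lung and thorax, Hoxa10 and Hoxd9 were called in no comparison. Hoxa5 was at 1.88 and 1.11 CPM in WT of the genotype set and ran from 1.06 to 3.50 CPM over all 12 libraries. Hoxd9 ran from 0.110 to 1.49 CPM in the same libraries.

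Genes that work with the clusters were counted from lists chosen with earlier results known, and each count is read beside the shares of all genes. These shares, first of genes that rose and then of genes that fell, were 7.94% and 9.56% in DuxKO of the genotype set, 7.76% and 8.91% in DuxKO of the Pramel7 set, and 14.7% and 11.4% in CtbpDKO against WT. They were 21.4% and 19.6% in Ctbp_DuxTKO against DuxKO, 11.6% and 9.83% in DuxKO_P7OE against DuxKO, and 2.41% and 2.59% in day 3 against day 0. Of 9 Hox cofactors (Pbx, Meis and Pknox genes), all tested, 4 rose and 1 fell in DuxKO of the genotype set, and 3 rose and 0 fell in the Pramel7 set. Meis1, Meis2 and Pbx3 rose in both. Meis1 went from 1.52 ± 0.390 to 5.38 ± 0.610 CPM in the genotype set (SD, n = 2 each) and from 2.65 ± 0.638 (SD, n = 4) to 7.79 ± 1.76 CPM (SD, n = 2) in the Pramel7 set. Meis2 in the latter went from 8.69 ± 2.72 (SD, n = 4) to 33.1 ± 0.0176 CPM (SD, n = 2). In CtbpDKO against WT 0 cofactors rose and 3 fell, among them Pbx3, from 6.43 ± 0.0332 to 2.25 ± 0.490 CPM (SD, n = 2 each). In Ctbp_DuxTKO against DuxKO 5 of the 9 fell, and in DuxKO_P7OE against DuxKO 2 fell. Cdx1, a direct activator of Hox genes, went from 0.496 ± 0.0367 CPM in WT to 5.47 ± 0.421 CPM in CtbpDKO and 1.82 ± 0.0767 CPM in DuxKO (SD, n = 2 each), and rose in both. Cdx1 and Cdx2 were the called members of 3 tested Cdx and ParaHox genes in that DuxKO comparison, while 0 of 4 were called in DuxKO of the Pramel7 set.

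Long non-coding RNAs inside the clusters moved with their neighbours in part. Hotairm1 is an antisense RNA of the Hoxa cluster. It was at 1.07 and 0.750 CPM in WT of the genotype set, 2.92 and 2.73 CPM in DuxKO and 0.347 and 0.509 CPM in Ctbp_DuxTKO, and it rose in DuxKO and fell in the triple knockout against DuxKO. In the Pramel7 set it was between 0.273 and 1.04 CPM in WT, at 3.02 and 3.25 CPM in DuxKO and at 0.917 and 0.289 CPM in DuxKO_P7OE, with a rise and then a fall. The genotype rise was lost without WT replicate 2 (adjusted p = 0.0762) or DuxKO replicate 1 (0.0504), and the fall in DuxKO_P7OE without DuxKO replicate 3 (0.0605), DuxKO replicate 4 (0.0806) or DuxKO_P7OE replicate 2 (0.129). Hoxd3os1, antisense to Hoxd3, had 49 and 22 counts in CtbpDKO, 67 and 54 in Ctbp_DuxTKO, 36 and 54 in DKO_Dppa2 and 0 and 2 in WT. It rose in the comparisons of CtbpDKO with WT, Ctbp_DuxTKO with DuxKO and DKO_Dppa2 with Dppa2KO, as Hoxd3 did. Like Hoxd3 it was low in the groups that keep Ctbp and was tested through those without, so this repeat is a description and supports nothing. In the time course Hoxd3os1 had 39 and 39 counts on day 0, 5 and 10 on day 3, 8 and 5 on day 9 and 31 and 33 on day 12. It fell to day 3 and rose to day 12, and the fall was lost without day 0 replicate 1 (adjusted p = 0.0908), day 0 replicate 2 (0.0634) or day 3 replicate 1 (0.178), the rise with any library left out (from 0.0532 to 0.139). Since strand use in counting is not known, the reads of Hoxd3 and Hoxd3os1 cannot be told apart. Halr1, near the Hoxa cluster, moved in opposite directions in the 2 sets: it was at 13.6 and 14.6 CPM in WT and at 6.16 and 7.48 CPM in DuxKO of the genotype set, but at 4.13 to 4.86 CPM in WT and at 16.7 and 15.3 CPM in DuxKO of the Pramel7 set.

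The same shares of all genes stand beside the counts of chromatin, retinoic acid and neighbouring genes. Of the 12 Polycomb repressive complex 2 genes, all tested, 4 fell and 0 rose in DuxKO of the genotype set, and 6 fell and 0 rose in the Pramel7 set, with medians of -0.28 and -0.53 on the log2 scale. In CtbpDKO against WT 4 rose and 1 fell, in Ctbp_DuxTKO against DuxKO 7 rose and 2 fell, in DuxKO_P7OE against DuxKO 3 rose and 1 fell, and in day 3 against day 0 Epop, which associates with the complex in stem cells, fell alone. In the genotype set Epop fell in DuxKO (165 ± 3.52 CPM, log2 fold change -0.60, SE 0.10, adjusted p = 0.00125) and rose in CtbpDKO (420 ± 53.4 CPM, log2 fold change 0.75, SE 0.10, adjusted p = 9.78e-05; SD, n = 2 each). Of 20 Polycomb repressive complex 1 genes 3 rose and 6 fell in DuxKO of the genotype set and 2 rose in the Pramel7 set, and 2 rose and 5 fell in CtbpDKO. Of 11 Trithorax genes 1 rose and 3 fell, 1 rose and 1 fell, and 3 rose and 1 fell in the same comparisons. Of 18 retinoic acid genes, 5 rose and 1 fell in CtbpDKO against WT, 1 rose and 1 fell in DuxKO of the genotype set, and 1 rose and 4 fell among 16 tested in DuxKO of the Pramel7 set. Genes flanking the clusters were called in both directions: of 17 tested neighbours 4 rose and 2 fell in CtbpDKO, 4 rose and 5 fell in DuxKO of the genotype set, and 2 rose and 4 fell in the Pramel7 set.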

How the data were processed

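RNA was measured in 34 libraries. Per the labels' protocols, a PureLink kit served for RNA extraction and a Collibri stranded kit for the libraries. Per the submitters' processing notes, Trim Galore, HISAT2, featureCounts and mm10 were among the tools and builds, with no version or setting. The authors deposited raw counts per gene symbol, as whole numbers. A second deposited table repeats 8 genotype libraries (442208 of 442208 values the same) and was not used, and 6 bisulfite libraries were not analysed here. Column names matched 1 labelled sample each, with 0 unmatched.

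The Hox members and all gene lists were chosen with earlier results of these data known. Per set, 1 edgeR 4.0.16 quasi-likelihood fit (R 4.3.3, limma 3.58.1) over all libraries used TMM scaling and the filterByExpr filter, which left 21193, 20161 and 20612 genes in the genotype, Pramel7 and time course sets. Adjusted p-values are Benjamini-Hochberg over these. Sets were never merged, and levels are compared within a set. Named with values in each library were members with at least 50 mean counts in a set, or called with at least 20 mean counts in the higher group. Weaker members whose call is described were added after their values were seen. For the other lists the rule allowed at most 2 named members per direction among those called with at least 50 mean counts. Non-coding RNAs were chosen after their values were seen. The alternatives were DESeq2 1.42.0, RLE factors, upper quartile factors (chosen after seeing the data), no filter, only the groups compared, a prior count of 2 in place of 0.125, a replicate block, and each library left out. Fold bounds set the lower group at 3 counts per library; intervals and floors cover counting error only. Protein sequences were not used here. The results of 1 Hox gene are not reported here, although counts of members and cluster sums include it.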

Additional observations from a re-analysis of the deposited data

Results flagged for a closer look

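The Ctbp effect was called different between cells with and without Dux for the Hox genes named here, by the interaction term of edgeR's quasi-likelihood fit. On the log2 scale it was higher without Dux by 1.83 for Hoxd13, 3.14 for Hoxd11, 6.26 for Hoxd12 and 1.36 for Hoxc13, and its value was -1.81 for Hoxb9. Hoxd13 and Hoxd11 kept the call with each of the 8 libraries left out. Hoxd12, Hoxb9 and Hoxc13 lost it with most or all of these libraries left out in turn, and Hoxd12 rests on 10 counts or fewer per library of these 4 genotypes. The term includes the DuxKO libraries, where Hoxd13 and Hoxd11 were called lower than in WT. Neither fall was called in the Pramel7 set. The shares of members called were not far from those of all genes, 9.82% higher and 9.64% lower.

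Among WT libraries of the Pramel7 set, 1 stood apart for Hoxc8, at 0.0757 CPM against 0 in the other 3. This is 2 counts in 1 library. It is the single member so marked among 28 combinations of gene and group with at least 4 libraries, where chance marks about 1 in 20.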

How the results depend on the processing

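Of 63 calls of a Hox gene in a comparison, 21 held with each library left out, and 0 turned direction under any fit. Of 157 alternatives to the ratios of cluster sums, 155 stayed within 1 SD of the log2 sums. Leaving out 1 library of a pair can hardly shift a ratio further than that, so this number says little about stability. The log2 ratio of the Hoxd sum in DuxKO over WT of the Pramel7 set turned to 0.0720 without DuxKO replicate 3 and ran from -0.43 to 0.0720 with 1 library left out. Libraries of 10123058 to 36025046 counts limit most members to a few counts, where a missed call says little.

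Numbers of called Hox genes with 1 library left out ranged from 3 to 6 for CtbpDKO against WT, 2 to 6 and 3 to 10 for DuxKO against WT (genotype and Pramel7 sets), 0 to 1 for Dppa2KO against WT, 0 to 0 for Ctbp_DuxTKO against CtbpDKO, 7 to 11 for Ctbp_DuxTKO against DuxKO, 0 to 1 for DKO_Dppa2 against CtbpDKO, 2 to 3 for DKO_Dppa2 against Dppa2KO, and 3 to 6 for the interaction. They ranged from 0 to 3 for P7OE against WT, 2 to 2 for DuxKO_P7OE against DuxKO, 0 to 1 for P7KO against WT, 1 to 2 for day 3 against day 0, 0 to 1 for day 9 against day 3 and for day 12 against day 9, 0 to 0 for day 18 against day 12, and 0 to 1 for day 18 against day 0.

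Without the filter on low counts the number was 1 for Ctbp_DuxTKO against CtbpDKO, 3 for DKO_Dppa2 against CtbpDKO, 10 for the interaction, 2 for P7KO against WT, 5 for each of the first 3 time steps and 1 for day 18 against day 0. DESeq2 gave 1 for Dppa2KO against WT, 2 for DKO_Dppa2 against CtbpDKO, 1 for P7KO against WT, 2 for day 9 against day 3, 3 for day 12 against day 9 and 1 for day 18 against day 0. Fitted with only the groups compared, it was 1 for Ctbp_DuxTKO against CtbpDKO, 0 for DKO_Dppa2 against CtbpDKO, 1 for P7OE against WT, 1 for day 3 against day 0 and 0 for day 9 against day 3. With counts halved, chosen after seeing that low counts are mostly even, it was 5 for CtbpDKO against WT, 3 for Ctbp_DuxTKO against CtbpDKO, 3 for DKO_Dppa2 against CtbpDKO, 6 for DuxKO against WT of the Pramel7 set, 1 for day 3 against day 0, 0 for day 9 against day 3 and 3 for day 12 against day 9. Without WT libraries 3 and 4, or 5 and 6, also chosen after seeing the data, P7KO against WT had 1 and 1. The cause of these differences was not tested.

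Replicate numbers are shared by groups, but differences between same-numbered libraries correlated at only -0.118 to 0.107, so they do not pair the samples. With the replicate block the number was 7 for CtbpDKO against WT, 7 for DuxKO against WT of the genotype set, 11 for that of the Pramel7 set, 12 for Ctbp_DuxTKO against DuxKO and 2 for day 3 against day 0. The numbers of CtbpDKO and WT correlated at -0.118, and a block with them crossed gave 6. No paired fit was possible for the other Pramel7 comparisons because their groups share no numbers.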
